A study of Mus musculus with 6 samples.

Results

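The 38 genes described here encode the mTOR complexes and the proteins that report growth factors and amino acids to mTORC1 at the lysosome. They were listed by symbol, and all 38 were found among the 54532 genes of the deposited table. They fall into the mTOR complexes with 7 genes, the TSC complex and Rheb with 4, and the Rag GTPases, Ragulator and the transporter Slc38a9 with 10. The folliculin complex has 3 genes, GATOR1 has 3, GATOR2 has 5 and KICSTOR has 1. The last 5 are the downstream genes Rps6kb1, Rps6kb2, Ulk1 and Tfeb and the stress-induced inhibitor Ddit4. Polyadenylated RNA came from the testis of mice at P9 (postnatal day 9), with 3 libraries of Ppp6r3 cKO testis and 3 of wild-type testis. The product of Ppp6r3 is a regulatory subunit of the phosphatase PP6. The Cre line, the deleted exons, the strain and any allele carried by the wild-type mice are not given in the sources used here. Nothing in the labels ties a sample to an animal of its own, so each p-value speaks of the spread among these samples, which may be technical.

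mTORC1 is a kinase complex that promotes protein synthesis and restrains autophagy. Amino acids act through the Rag GTPases, which the Ragulator scaffold holds on the lysosome: GATOR1 switches RagA and RagB off, GATOR2 opposes GATOR1, KICSTOR anchors GATOR1 to the lysosome, and folliculin acts on RagC and RagD. Growth factors act through the TSC complex, which switches off Rheb, the direct activator of the kinase. In the mouse testis mTORC1 activity is known to accompany the differentiation of spermatogonia, and the title of the series places the study in mRNA translation at that step.

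The targeted gene, Ppp6r3, had 15.8, 15.3 and 14.9 FPKM in Ppp6r3 cKO libraries and 20.8, 21.3 and 21 FPKM in wild-type libraries. FPKM count the fragments of a gene per kilobase of its exons, scaled for the depth of each library. The groups did not overlap, and Ppp6r3 averaged 15.4 ± 0.458 FPKM in Ppp6r3 cKO testis and 21 ± 0.257 FPKM in wild-type testis (SD, n = 3 each; log2 difference -0.45, limma adjusted p = 0.000695). The steps between FPKM values gave 15970908 to 16606867 fragments per library, and the 38 genes rested on 222 to 3009 fragments each in a library. Ppp6r3 cKO replicate 1 stood apart by GC content: against the mean of the libraries, its log2 values had a median of -0.111 among genes in the lowest of 10 GC classes and of 0.126 in the highest class. Values after a correction of each library for GC content and length are therefore given where they change a call. The testis markers were present: none of the 8 marker lists had a gene at 0 in all libraries, and Sox9, the Sertoli cell transcription factor, named after its value was seen, averaged 39.0 FPKM in Ppp6r3 cKO and 38.5 FPKM in wild type.

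Across the 38 genes, 2 rose in Ppp6r3 cKO testis, 9 fell and 27 did not pass the test (limma on log2(FPKM + 0.1), adjusted p under 0.05 over all genes tested). The 2 that rose were Ddit4 and Flcn, and those that fell were all 3 GATOR1 subunits (Depdc5, Nprl2 and Nprl3), Tsc1 and Tbc1d7 of the TSC complex, Lamtor3 of Ragulator, Slc38a9, Mapkap1 of mTORC2 and the S6 kinase gene Rps6kb2. Over all 17658 genes tested, 15.5% were called, 7.67% as risers and 7.86% as fallers, against 28.9% of the 38. With GC content and length corrected for, 3 rose (10.1% of all genes) and 8 fell (8.90% of all genes), 19.0% of all genes being called. After quantile normalization 2 rose and 5 fell (18.4% of the 38, against 15.7% of all genes). In bulk tissue, fewer cells of a type and less RNA per cell cannot be told apart. The median log2 fold change of the 38 was -0.001, against 0.003 for all genes tested. Every change was small: the 38 log2 fold changes ran from -0.33 to 0.25. The share depended on single libraries. Without wild-type replicate 2, 0 of the 38 passed limma's adjusted threshold, while 7.03% of all genes did. In that fit 17 of the 38 had an unadjusted p under 0.05. The share of all genes at this unadjusted threshold is not reported here, so that count has no background. On all libraries voom called 13 of the 38 (34.2%, against 23.2% of all genes). Without wild-type replicate 3, Depdc5 alone passed (2.63%, against 7.54% of all genes). Leaving out wild-type replicate 1 gave 3 calls (7.89%, against 9.2% of all genes). Leaving out Ppp6r3 cKO replicate 1, 2 or 3 gave 6, 5 or 3 calls. These were 15.8%, 13.2% and 7.89% of the 38, against 13.6%, 10.5% and 10.8% of all genes.

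**Figure D1:**
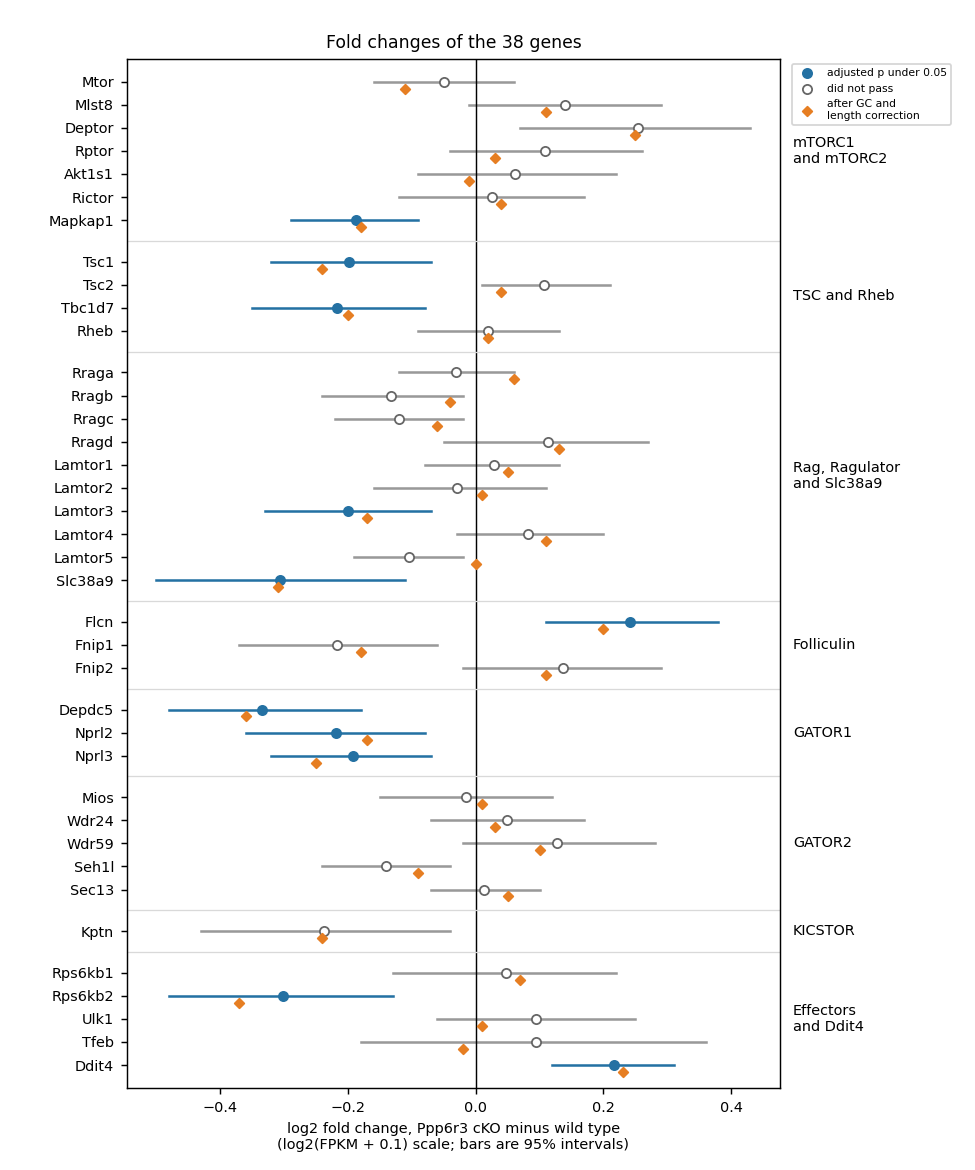
Log2 fold change of each of the 38 genes (Ppp6r3 cKO minus wild type, x axis), by complex. Circles are the fitted values, filled where the adjusted p was under 0.05, bars are 95% intervals and diamonds are values after correction for GC content and length. The 3 GATOR1 genes lie below 0, from -0.33 to -0.19, and the 5 GATOR2 genes spread from -0.14 to 0.13.

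GATOR1 was the one complex of several genes here with every subunit called, at 0.79 to 0.88 of the wild-type level. Depdc5 (chromosome 5, 32863701 to 32994236 on mm10), its largest subunit, had 7.42, 6.36 and 6.72 FPKM in Ppp6r3 cKO libraries and 8.56, 8.69 and 8.62 FPKM in wild-type libraries. The groups did not overlap, and the wild-type libraries lay close together. On the log2 scale Depdc5 fell by 0.33 (SE 0.065, limma adjusted p = 0.0132), and by 0.36 after the GC and length correction. Its call was lost without wild-type replicate 2 (adjusted p = 0.0541) and held without each other library. Nprl2 (chromosome 9, 107542226 to 107545706) carries the GTPase-activating function of the complex. It had 9.0, 9.7 and 8.4 FPKM in Ppp6r3 cKO libraries and 10.8, 10.1 and 10.6 FPKM in wild-type libraries, again with no overlap. It fell by 0.22 (SE 0.062, limma adjusted p = 0.0495) and missed the threshold once GC content and length were corrected for (log2 fold change -0.17, adjusted p = 0.0825). Nprl3 (chromosome 11, 32225628 to 32267707), the remaining subunit, had 6.68, 6.76 and 6.75 FPKM in Ppp6r3 cKO libraries and 7.53, 8.11 and 7.48 FPKM in wild-type libraries. It fell by 0.19 (SE 0.055, limma adjusted p = 0.0495), and by 0.25 after the correction (adjusted p = 0.0184). The Nprl2 call held only without Ppp6r3 cKO replicate 2 (adjusted p up to 0.135 without the others), and the Nprl3 call was lost without any single library (adjusted p 0.0863 to 0.166).

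Nprl3 lies beside the alpha-globin genes, and its introns hold enhancers of those genes in mouse. Hba-a1, one of them, averaged 82.5 ± 10.5 FPKM in Ppp6r3 cKO testis and 140.5 ± 14.2 FPKM in wild-type testis (SD, n = 3 each; log2 difference -0.77, limma adjusted p = 0.00449). Hba-a2, another, named after its value was seen, averaged 9.49 ± 1.85 FPKM in Ppp6r3 cKO and 10.98 ± 1.77 FPKM in wild type. Its groups overlapped (limma adjusted p = 0.409). The 6 erythroid markers summed to 203 to 223 FPKM in Ppp6r3 cKO libraries and 320 to 356 FPKM in wild-type libraries, with 3 of 5 tested markers called lower and none higher (of all genes tested 7.86% fell and 7.67% rose). Their part in the Nprl3 result was not tested. Of the Nprl3 exons, 17.7% overlap Mpg on the opposite strand, which averaged 6.87 FPKM in Ppp6r3 cKO and 7.03 FPKM in wild type (log2 fold change -0.03). The library kit keeps the strand, per the labels, but whether the counting used it is not given in the sources used here.

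RefSeq promoter windows (GRCm38.p6) were at hand for 33 of the 38 genes. The 150 bases before the RefSeq start of each GATOR1 gene are shown because all 3 passed the test in the same direction. Capitals mark GC boxes (GGGCGG) and ETS motifs (CCGGAAG), read on both strands.
Depdc5, chr5:32863571-32863720, plus strand: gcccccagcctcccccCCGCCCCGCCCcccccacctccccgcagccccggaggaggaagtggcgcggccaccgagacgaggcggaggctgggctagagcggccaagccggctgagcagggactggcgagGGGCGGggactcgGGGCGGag
Nprl2, chr9:107542059-107542208, plus strand: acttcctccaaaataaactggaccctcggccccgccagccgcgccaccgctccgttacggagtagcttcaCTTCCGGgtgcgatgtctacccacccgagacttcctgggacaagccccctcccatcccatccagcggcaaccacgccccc
Nprl3, chr11:32267708-32267857, minus strand: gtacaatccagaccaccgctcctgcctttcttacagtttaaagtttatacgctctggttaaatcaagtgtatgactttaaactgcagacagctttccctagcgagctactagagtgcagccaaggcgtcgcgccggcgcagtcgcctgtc
Depdc5 has 4 GC box matches in this stretch, of which those in the first run overlap, and Nprl2 has 1 ETS match. These motifs, E-boxes and CCAAT boxes have no match in the Nprl3 stretch, and a GC box lies farther upstream of that gene. In windows of 250 bases before the start, GC boxes were in 57.6% of the 33 genes and 35.4% of 27025 genes with a window, and ETS motifs in 21.2% of the 33 genes and 7.8% of all genes with a window. The 27025 genes were not limited to those expressed in this testis, so no trait of the pathway can be read from these shares.

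GATOR2, the complex that opposes GATOR1, had no subunit past the threshold. Sec13 (also of the COPII coat and the nuclear pore) was the most abundant at 33.7 ± 0.702 FPKM in Ppp6r3 cKO and 33.4 ± 0.673 FPKM in wild type (SD, n = 3 each), with a log2 fold change of 0.01 and a 95% interval from -0.07 to 0.10. Seh1l, shared with the nuclear pore, had 23.8, 25.6 and 24.7 FPKM in Ppp6r3 cKO libraries and 26.9, 27.2 and 27.7 FPKM in wild-type libraries. The Seh1l groups did not overlap, and its log2 fold change of -0.14 missed the threshold (limma adjusted p = 0.0589). Mios (-0.02, interval -0.15 to 0.12), Wdr24 (0.05, interval -0.07 to 0.17) and Wdr59 (0.13, interval -0.02 to 0.28) had log2 intervals that include 0. Relative to Mios within each library, Depdc5 stood at 0.674, 0.525 and 0.529 in Ppp6r3 cKO and 0.691, 0.737 and 0.720 in wild type. This ratio of a GATOR1 to a GATOR2 gene was lower in all 3 Ppp6r3 cKO libraries (log2 difference -0.32, exact permutation test p = 0.1, the smallest that 3 against 3 libraries allow; adjusted p = 0.18 over the 9 pairs compared).

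Of KICSTOR, Kptn had 4.44, 4.68 and 5.06 FPKM in Ppp6r3 cKO libraries and 6.09, 5.61 and 5.10 FPKM in wild-type libraries. The groups nearly touched, and Kptn, at -0.24 on the log2 scale, missed the threshold (limma adjusted p = 0.0965, interval -0.43 to -0.04). Itfg2, another KICSTOR subunit, averaged 4.79 ± 0.0854 FPKM in Ppp6r3 cKO and 5.55 ± 0.0674 FPKM in wild type (SD, n = 3 each) and fell by 0.21 (limma adjusted p = 0.0447), a call lost without any single library. A further listed subunit, Kics2, was not analysed here.

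In the TSC complex, Tsc1 and Tbc1d7 were lower while Tsc2, which holds the GTPase-activating domain, was not. Tsc1 (chromosome 2, 28641228 to 28691167), the stabilising partner of Tsc2, had 6.55, 6.31 and 6.06 FPKM in Ppp6r3 cKO libraries and 7.32, 7.30 and 7.12 FPKM in wild-type libraries. It fell by 0.20 (SE 0.055, limma adjusted p = 0.0459), and by 0.24 after the GC and length correction. Tbc1d7 (chromosome 13, 43151740 to 43171501), the small subunit, had 7.34, 7.63 and 6.87 FPKM in Ppp6r3 cKO libraries and 8.34, 8.31 and 8.77 FPKM in wild-type libraries. It fell by 0.22 (SE 0.058, limma adjusted p = 0.0410), and neither gene's groups overlapped. Tsc2 averaged 14.7 ± 0.409 FPKM in Ppp6r3 cKO and 13.6 ± 0.181 FPKM in wild type (SD, n = 3 each), and its log2 difference of 0.11 missed the threshold (adjusted p = 0.134). The ratio of Tsc1 to Tsc2 was 0.453, 0.417 and 0.420 in Ppp6r3 cKO libraries and 0.544, 0.529 and 0.523 in wild-type libraries, with no overlap (log2 difference -0.31, exact permutation test p = 0.1, adjusted p = 0.18). Rheb, the GTPase that the complex acts on, was at 0.02 (interval -0.09 to 0.13). The Tsc1 call held only without Ppp6r3 cKO replicate 1 (adjusted p up to 0.134 otherwise) and the Tbc1d7 call only without Ppp6r3 cKO replicate 2 (up to 0.132).

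**Figure D2:**
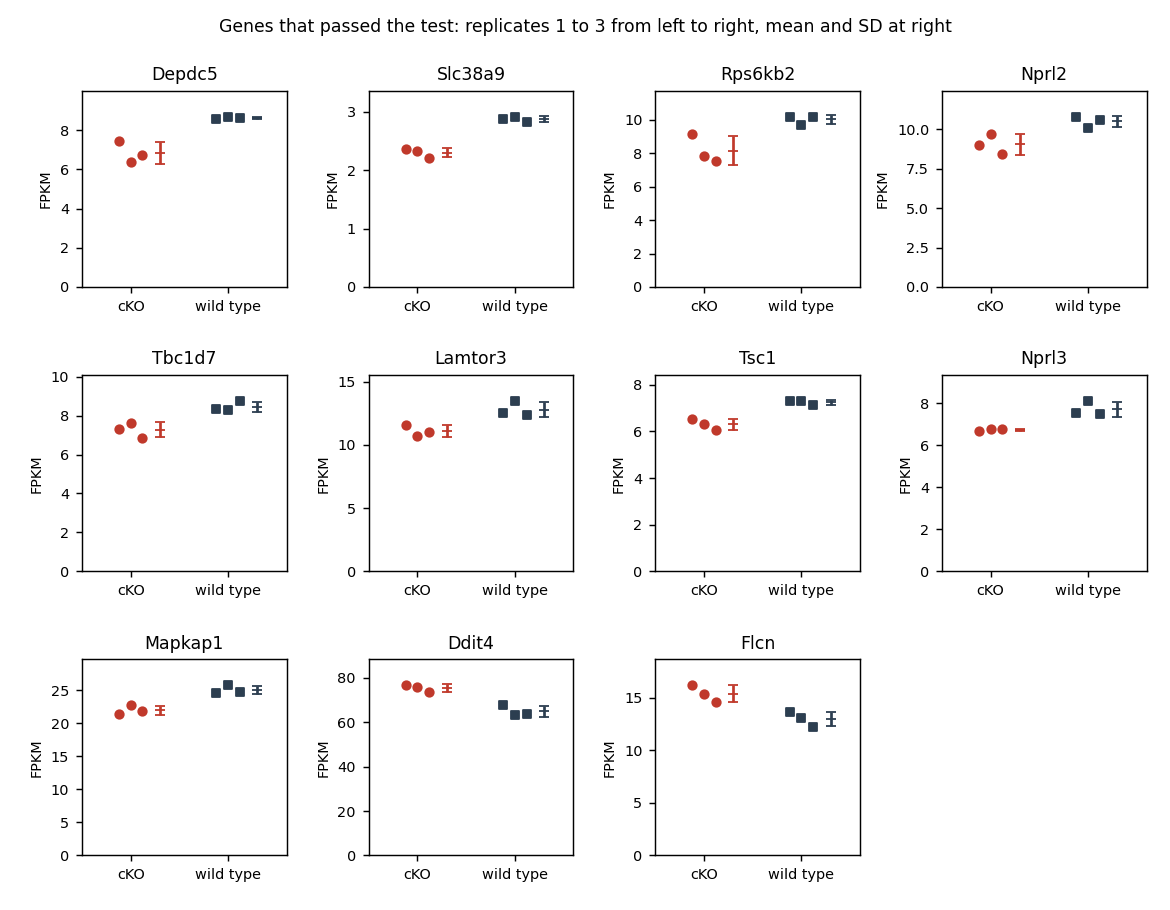
FPKM of the 11 genes that passed the test, with Ppp6r3 cKO libraries (circles) and wild-type libraries (squares) in replicate order, and the mean and SD of each group beside them. In each panel the groups do not overlap. The axes start at 0 and show that the differences are small against the level, from 0.793 to 1.18 of wild type.

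Among the Rag GTPases none passed. Rraga, with 46.2, 44.9 and 44.2 FPKM in Ppp6r3 cKO libraries and 47.6, 46.0 and 44.6 FPKM in wild-type libraries, was the most abundant, about 2.3 times its paralog Rragb in Ppp6r3 cKO and 2.14 times in wild type. Rragb was at -0.13 (limma adjusted p = 0.0964) and Rragc at -0.12 (adjusted p = 0.109), each with all Ppp6r3 cKO libraries below all wild-type libraries, and both moved nearer to 0 after the GC and length correction (-0.04 and -0.06). Rragd was at 0.11 (adjusted p = 0.319). RagC and RagD are alternative partners of RagA or RagB. The Rragc to Rragd ratio was 2.16, 1.96 and 1.96 in Ppp6r3 cKO libraries and 2.24, 2.41 and 2.49 in wild-type libraries (log2 difference -0.23, exact permutation test p = 0.1, adjusted p = 0.18).

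Of the 5 Ragulator genes, which encode the scaffold that holds the Rags, 1 passed. Lamtor3 (chromosome 3, 137918506 to 137928900) had 11.6, 10.7 and 11.0 FPKM in Ppp6r3 cKO libraries and 12.5, 13.5 and 12.4 FPKM in wild-type libraries, with no overlap. It fell by 0.20 (SE 0.055, limma adjusted p = 0.0447), missed the threshold once GC content and length were corrected for (-0.17, adjusted p = 0.0744), and held its call only without Ppp6r3 cKO replicate 1 (up to 0.149 otherwise). Lamtor5, the most abundant of the 38 genes in wild type, averaged 71.4 ± 1.56 FPKM in Ppp6r3 cKO and 76.8 ± 1.5 FPKM in wild type (SD, n = 3 each), and was at -0.11 (adjusted p = 0.088). After the correction its adjusted p was 0.936. Lamtor1, which anchors the scaffold to the membrane by its lipids (0.03), Lamtor2 (-0.03) and Lamtor4 (0.08) had overlapping groups.

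Slc38a9, a lysosomal amino acid transporter that senses arginine for the Rags, had the second lowest fold of the 38. This gene (chromosome 13, 112660751 to 112738749) had 2.37, 2.33 and 2.21 FPKM in Ppp6r3 cKO libraries and 2.88, 2.92 and 2.83 FPKM in wild-type libraries. The groups were far apart for their spread, and Slc38a9 fell by 0.31 (SE 0.085, limma adjusted p = 0.0447), the same after the GC and length correction (adjusted p = 0.0389). Its call was lost without any single library (adjusted p 0.0639 to 0.13), while voom on the recovered fragments of all libraries gave an adjusted p of 0.000191. It was also the least abundant of the 38 in Ppp6r3 cKO testis. Its exons sum to 16704 bases over all isoforms in GENCODE M21.

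In the folliculin complex Flcn rose, and neither of its partners passed. Flcn (chromosome 11, 59791408 to 59810016), which acts on RagC and RagD, had 16.2, 15.3 and 14.6 FPKM in Ppp6r3 cKO libraries and 13.6, 13.1 and 12.2 FPKM in wild-type libraries. All Ppp6r3 cKO libraries were above all wild-type libraries, and Flcn rose by 0.24 (SE 0.059, limma adjusted p = 0.0300). The call held without wild-type replicate 1 or without Ppp6r3 cKO replicate 3 and was lost without each of the other libraries (adjusted p 0.0664 to 0.0995). Its partner Fnip1 had 6.55, 7.51 and 7.36 FPKM in Ppp6r3 cKO libraries and 7.93, 8.31 and 8.68 FPKM in wild-type libraries. Fnip1 was lower in each, at -0.22, but did not pass (adjusted p = 0.0677); after the GC and length correction it was called (-0.18, adjusted p = 0.0317). The alternative partner Fnip2 was at 0.14 (adjusted p = 0.214). The Fnip1 to Fnip2 ratio was 1.14, 1.29 and 1.33 in Ppp6r3 cKO libraries and 1.64, 1.5 and 1.68 in wild-type libraries (log2 difference -0.36, exact permutation test p = 0.1, adjusted p = 0.18). By a narrow margin this was the largest difference of the 9 ratios, none of which was corrected for GC content. The Rps6kb1 to Rps6kb2 ratio differed by 0.35 on the log2 scale, with overlapping groups.

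**Figure D3:**
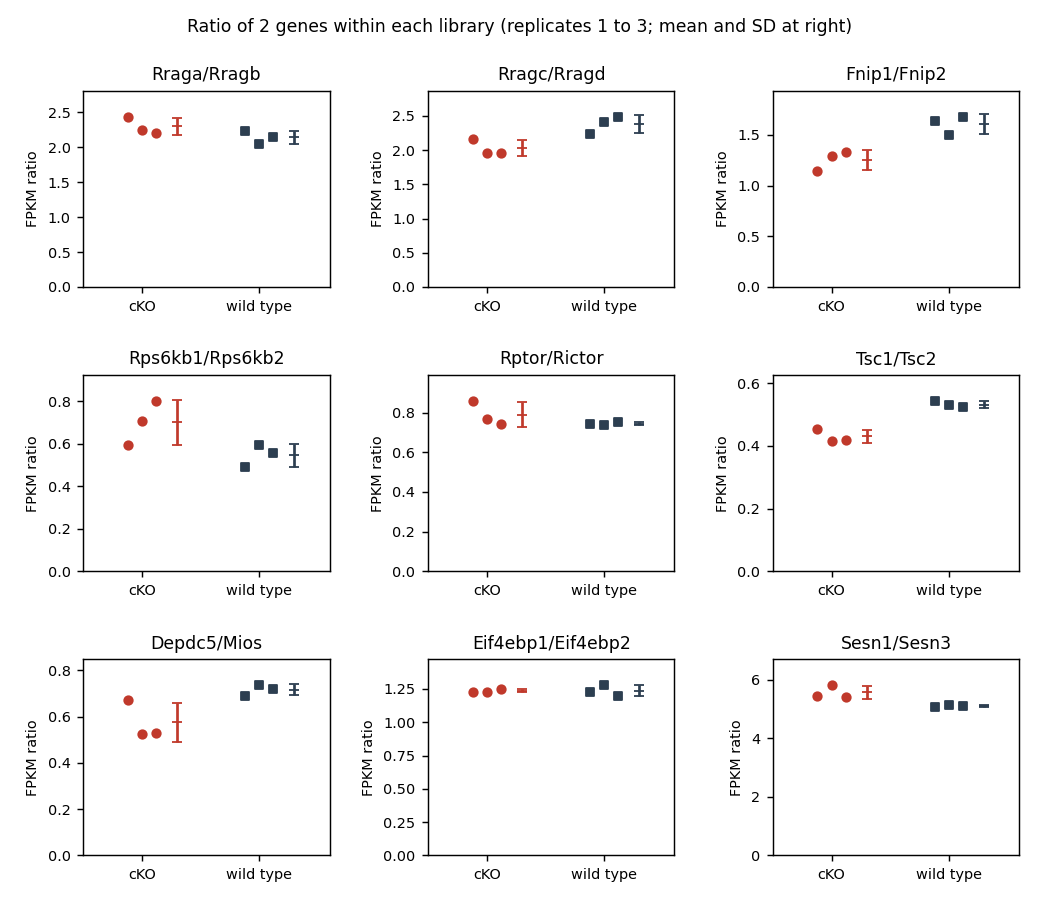
Ratio of the FPKM of 2 genes within each library (y axis) for 9 pairs of paralogs or partners, with Ppp6r3 cKO libraries as circles and wild-type libraries as squares, and the mean and SD of each group at their right. In 5 of the 9 pairs the groups do not overlap: Rragc/Rragd, Fnip1/Fnip2, Tsc1/Tsc2 and Depdc5/Mios are lower in Ppp6r3 cKO and Sesn1/Sesn3 is higher.

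The subunits that make up mTORC1 itself did not pass. Mtor, the kinase, averaged 17.2 ± 0.896 FPKM in Ppp6r3 cKO and 17.8 ± 0.151 FPKM in wild type (SD, n = 3 each; log2 difference -0.05, interval -0.16 to 0.06). Rptor, the mTORC1 scaffold, was at 0.11 (interval -0.04 to 0.26), Mlst8, bound to the kinase in both complexes, at 0.14 (interval -0.01 to 0.29), and Akt1s1, an inhibitor of mTORC1, at 0.06 (interval -0.09 to 0.22). Deptor, an inhibitor shared by both complexes, had 3.93, 4.09 and 4.36 FPKM in Ppp6r3 cKO libraries and 3.37, 3.65 and 3.31 FPKM in wild-type libraries. The Deptor groups did not overlap, but its log2 fold change of 0.25 did not pass (limma adjusted p = 0.0639); it was called after the GC and length correction (adjusted p = 0.0477) and with voom (adjusted p = 0.0116). Of mTORC2, the scaffold gene Rictor was at 0.03 (interval -0.12 to 0.17). Mapkap1 (chromosome 2, 34406771 to 34624950), which encodes the mTORC2 subunit SIN1, had 21.4, 22.7 and 21.8 FPKM in Ppp6r3 cKO libraries and 24.6, 25.8 and 24.8 FPKM in wild-type libraries. It fell by 0.19 (SE 0.043, limma adjusted p = 0.0237), with no overlap, and lost its call when any wild-type library or Ppp6r3 cKO replicate 3 was left out (adjusted p 0.0551 to 0.0947). The Rptor to Rictor ratio, mTORC1 scaffold over mTORC2 scaffold, was 0.860, 0.767 and 0.743 in Ppp6r3 cKO libraries and 0.744, 0.737 and 0.751 in wild-type libraries, which overlap.

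**Figure D4:**
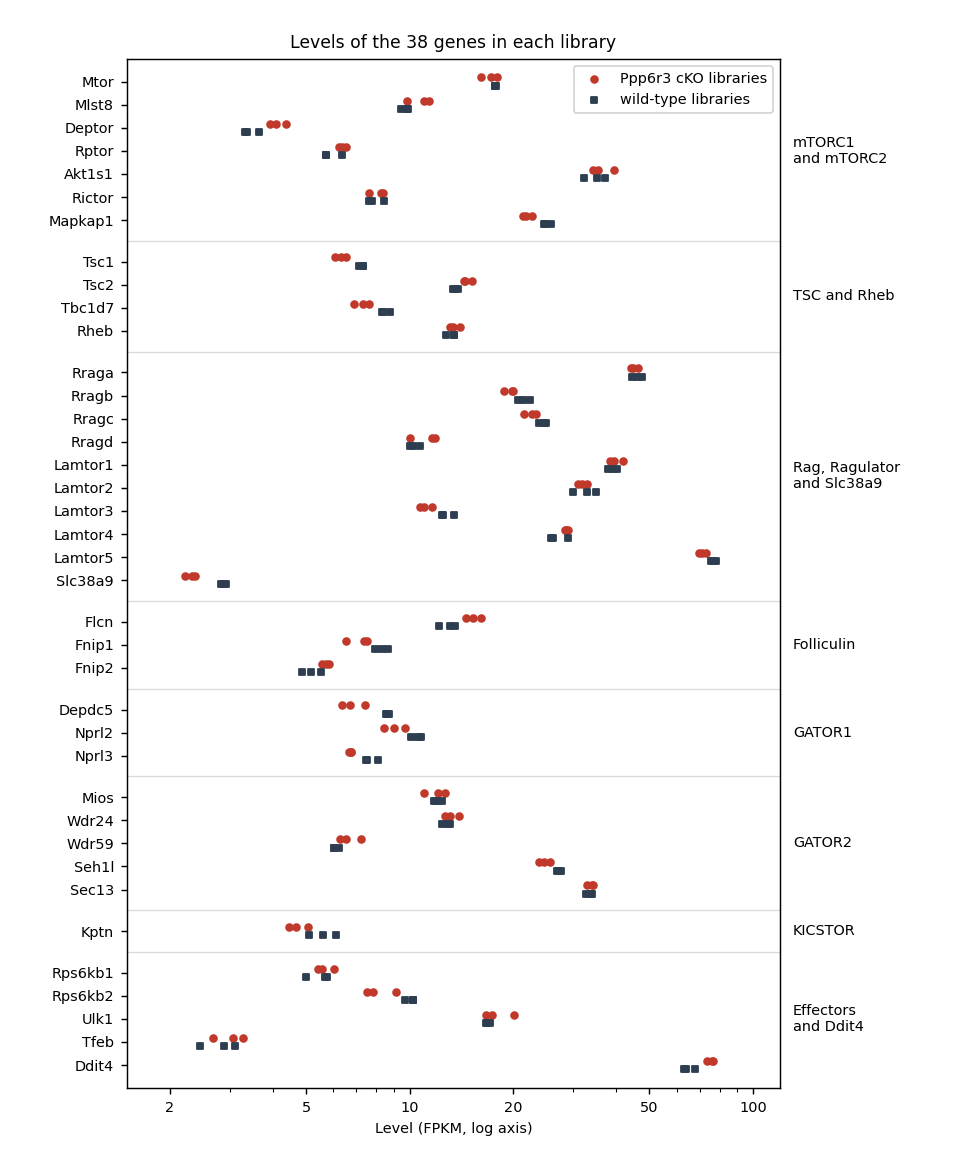
Level of each of the 38 genes in each library (FPKM, log axis), by complex, with Ppp6r3 cKO libraries as circles above wild-type libraries as squares. Levels run from about 2.2 FPKM for Slc38a9 to 78.3 FPKM for Lamtor5, and the groups do not overlap for 21 genes.

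Across the 38 genes the libraries of the groups did not overlap for 21, which is 55.3%, against 37.0% of all genes tested. Of these, 6 were higher in Ppp6r3 cKO (18.8% of all genes) and 15 lower (18.2% of all genes). Within complexes the levels per length were uneven. In wild-type testis Akt1s1 (34.8 ± 2.35 FPKM) and Mapkap1 (25.0 ± 0.664) were above Mtor (17.8 ± 0.151), and Rptor (5.92 ± 0.369) and Deptor (3.44 ± 0.18) were at the bottom of the mTOR genes (SD, n = 3). Sec13 and Seh1l, which serve other complexes too, were above Wdr24 (12.8 ± 0.356), Mios (12.05 ± 0.311) and Wdr59 (6.09 ± 0.123).

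Downstream, Rps6kb2 fell and Rps6kb1 did not pass. Rps6kb2 (chromosome 19, 4153991 to 4163354), which encodes S6 kinase 2, had 9.13, 7.83 and 7.53 FPKM in Ppp6r3 cKO libraries and 10.2, 9.71 and 10.2 FPKM in wild-type libraries. It fell by 0.30 (SE 0.076, limma adjusted p = 0.0321), with no overlap, and by 0.37 after the GC and length correction. Its call held only without Ppp6r3 cKO replicate 1 (adjusted p up to 0.0992 otherwise). Of its exons, 23.7% overlap Coro1b or Ptprcap on the opposite strand: Coro1b averaged 72.0 ± 4.91 FPKM in Ppp6r3 cKO and 79.7 ± 2.55 FPKM in wild type (SD, n = 3 each; log2 difference -0.15, adjusted p = 0.104), with the same limit on strand as for Nprl3. Rps6kb1, for S6 kinase 1, the better studied paralog, was at 0.05 (interval -0.13 to 0.22). Ulk1, the autophagy kinase that mTORC1 restrains, had 20.1, 16.7 and 17.4 FPKM in Ppp6r3 cKO libraries and 16.7, 16.8 and 17.1 FPKM in wild-type libraries; replicate 1 of Ppp6r3 cKO alone was high, and Ulk1, at 0.10, missed the threshold (adjusted p = 0.388). Tfeb, a transcription factor of lysosomal genes that mTORC1 keeps in the cytoplasm, averaged 3.01 ± 0.305 FPKM in Ppp6r3 cKO and 2.81 ± 0.33 FPKM in wild type (SD, n = 3 each), with overlapping groups.

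Ddit4 encodes REDD1, an inhibitor of mTORC1 that acts through the TSC complex and is induced by stress and glucocorticoids. This gene (chromosome 10, 59949669 to 59951834) had 76.8, 75.8 and 73.7 FPKM in Ppp6r3 cKO libraries and 67.7, 63.2 and 63.9 FPKM in wild-type libraries. All Ppp6r3 cKO libraries lay above all wild-type libraries. Ddit4 rose by 0.22 (SE 0.040, limma adjusted p = 0.0113), the smallest adjusted p of the 38, and by 0.23 after the GC and length correction. The call was lost without wild-type replicate 2 (adjusted p = 0.0564) or 3 (0.0520).

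The MiT/TFE factors, Tfeb among them, bind E-boxes (CACGTG), so these letters were read in the promoter windows. They were in 7 of the 33 genes with a window (21.2%), against 6.9% of all genes with a window. All genes with a window include genes not tested here, so the shares are not matched for expression. The 7 genes were Fnip1, Lamtor1, Lamtor4, Rheb, Rragb, Rragc and Tbc1d7, and of these Tbc1d7 was the 1 that passed the test. The longer CLEAR motif, built on an E-box, was in none of the 33 and in 0.3% of all genes, and the ATF4-type letters TGATGNAA were in Lamtor4 alone. The 30 bases around each match, with the E-box in capitals, show how the flanks differ.
Fnip1, chr11:54438092-54438121, plus strand: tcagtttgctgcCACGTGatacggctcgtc
Lamtor1, chr7:101905757-101905786, plus strand: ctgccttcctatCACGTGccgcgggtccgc
Lamtor4, chr5:138255350-138255379, plus strand: gcagaaagttaaCACGTGaacagcttttca
Lamtor4, chr5:138255366-138255395, plus strand: tgaacagcttttCACGTGtaaaccaaacca
Rheb, chr5:24842440-24842469, minus strand: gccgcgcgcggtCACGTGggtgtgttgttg
Rragb, chrX:153139819-153139848, plus strand: gagagcccgggcCACGTGatggcgggtggc
Rragb, chrX:153139910-153139939, plus strand: aaagggtagcggCACGTGacaggccctggg
Rragc, chr4:123917309-123917338, plus strand: ggtgattccgggCACGTGatagtaccactt
Tbc1d7, chr13:43171537-43171566, minus strand: ccggttaacatcCACGTGtgggtgggactc
These are matches of letters and not known binding sites in this tissue.

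Beyond the 38 genes, 113 others of the pathway were listed by role, of which 112 were tested. Of these, 15 rose, 10 fell and 87 did not pass (22.3% called, against 15.5% of all genes tested), and 8 of the 25 calls held when each library was left out in turn. Among 14 effectors that mTORC1 uses to control translation, 6 rose and none fell (of all genes tested 7.67% rose and 7.86% fell), with a median log2 fold change of 0.11. Eif4b, a cofactor of the initiation helicase, averaged 125.8 ± 4.81 FPKM in Ppp6r3 cKO and 108.7 ± 0.133 FPKM in wild type (SD, n = 3 each; log2 difference 0.21, limma adjusted p = 0.0105), and its call held without each library. Eef2k, the kinase that slows elongation, rose by 0.21 and Larp1, which binds mRNAs of ribosomal proteins, rose by 0.19, both lost without any single library, and Larp1 also with GC content and length corrected for (0.14, limma adjusted p = 0.0512). The translation repressor genes Eif4ebp1 (0.18) and Eif4ebp2 (0.18) and the scaffold Eif4g1 (0.17), named after their values were seen, make up the 6. The Eif4ebp1 call held only without Ppp6r3 cKO replicate 2, and the Eif4ebp2 call only without Ppp6r3 cKO replicate 1 or 2. The Eif4g1 call was lost without any wild-type library. The Eif4ebp1 to Eif4ebp2 ratio averaged 1.23 ± 0.0153 in Ppp6r3 cKO and 1.24 ± 0.0423 in wild type (SD, n = 3 each).

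Of 25 growth factor and energy inputs, 4 rose and 2 fell (24.0% called, median 0.097). Of all genes tested 15.5% were called, 7.67% as risers and 7.86% as fallers. Irs2, an adaptor of the insulin receptor, rose by 0.37 (7.57 ± 0.531 FPKM in Ppp6r3 cKO and 5.84 ± 0.144 FPKM in wild type; SD, n = 3 each; limma adjusted p = 0.00934). The PI3-kinase subunit gene Pik3r2 rose by 0.31 and Prr5, whose product binds mTORC2, by 0.32; these 3 calls held without each library. Outside the rule for named genes, Akt1 rose by 0.22, and Pdpk1 and Prkag1 each fell by 0.26. The Akt1 call was lost without wild-type replicate 2 or 3, and the Pdpk1 call without either of these or Ppp6r3 cKO replicate 2. The Prkag1 call was lost with GC content and length corrected for (-0.20, limma adjusted p = 0.0667) and held only without wild-type replicate 3. Of 8 amino acid sensor genes, Lars, the leucyl-tRNA synthetase, fell by 0.21 (26.2 ± 0.577 FPKM in Ppp6r3 cKO and 30.3 ± 0.444 FPKM in wild type; SD, n = 3 each; limma adjusted p = 0.0102; held without each library) and 7 did not pass. The share called in that list, 12.5%, was below that of all genes tested. The ratio of the sestrin genes Sesn1 and Sesn3, from the amino acid sensor list, was 5.45, 5.82 and 5.42 in Ppp6r3 cKO libraries and 5.08, 5.15 and 5.11 in wild-type libraries (log2 difference 0.12, exact permutation test p = 0.1, adjusted p = 0.18).

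The shares called were near the 15.5% of all genes tested in the lists of MiT/TFE factors and lysosomal targets (16.0%), autophagy genes (18.2%) and V-ATPase subunits (18.8%). Mcoln1, the lysosomal calcium channel, had the largest fall of the 112 genes, with 6.07 ± 0.463 FPKM in Ppp6r3 cKO and 8.72 ± 0.437 FPKM in wild type (SD, n = 3 each). It changed by -0.52 (SE 0.071, limma adjusted p = 0.00353), and the call held without each library. The 25 tested MiT/TFE factors and lysosomal targets had a median of 0.041. Among them Gaa rose by 0.16 (0.07 and no longer called with GC content and length corrected), and Ctsd, named after its value was seen, fell by 0.13. The Gaa call held only without Ppp6r3 cKO replicate 2, and the Ctsd call only without Ppp6r3 cKO replicate 1. Of 16 V-ATPase subunits, which acidify the lysosome, 3 fell and none rose (of all genes tested 7.86% fell and 7.67% rose; median -0.044): Atp6v1d fell by 0.29, Atp6v0b by 0.20 and Atp6v0d1 by 0.17. The Atp6v1d call held without each library. The Atp6v0b call held only without Ppp6r3 cKO replicate 1, and the Atp6v0d1 call only without that library or wild-type replicate 3. Of 22 autophagy genes 3 rose and 1 fell (median -0.008). Wipi1 rose by 0.30 and the cargo receptor gene Sqstm1 by 0.17, Becn1 fell by 0.19, and Map1lc3a, named after its value was seen, rose by 0.16. The Wipi1 call held without each library, and the Map1lc3a call was lost without any single library. The Sqstm1 call was lost without any wild-type library, and the Becn1 call without any of these or Ppp6r3 cKO replicate 3.

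**Figure D5:**
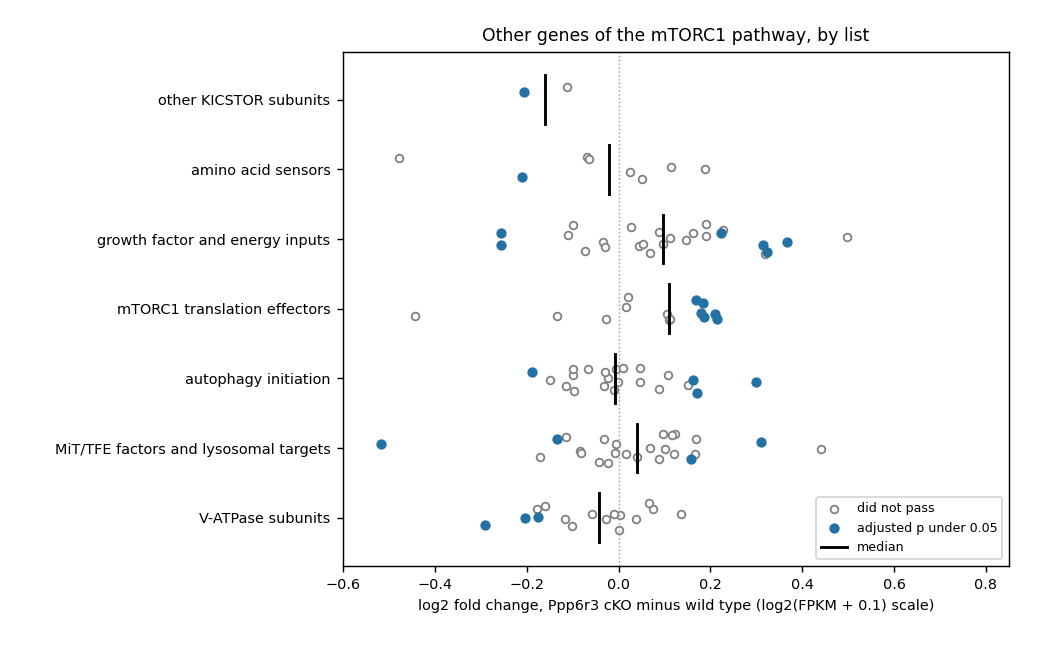
Log2 fold change (x axis, Ppp6r3 cKO minus wild type) of the 112 tested genes of the pathway outside the 38, by list. Filled points passed the test, open points did not, and the line is the median of the list. The 6 filled points of the translation effectors lie between 0.17 and 0.21, and the 3 of the V-ATPase between -0.29 and -0.17.

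Markers of the cell types of the testis differed between the same libraries, and their part in the results above was not tested. Over all genes tested, 7.67% rose and 7.86% fell. The 12 germ cell markers summed to 624 to 682 FPKM in Ppp6r3 cKO libraries and 757 to 792 FPKM in wild-type libraries, with 1 riser and 4 fallers. The 10 Sertoli cell markers summed to 1760 to 1820 FPKM in Ppp6r3 cKO libraries and 1670 to 1700 FPKM in wild-type libraries, with 2 risers and 2 fallers. A sum follows the most abundant genes of its list, so no sum in this paragraph speaks alone for a list as a whole. The median log2 fold change was 0.01 over the germ cell markers, 6 of 12 below 0, and 0.046 over the Sertoli cell markers. Stra8, a gene of meiotic entry named after its value was seen, averaged 51.4 ± 2.37 FPKM in Ppp6r3 cKO and 129.9 ± 2.23 FPKM in wild type (SD, n = 3 each), the largest difference among the germ cell markers. It does not stand for the list. Uchl1, the most abundant germ cell marker, was at -0.01 with overlapping groups. Dazl fell by 0.25, a call lost without any wild-type library. Zbtb16, named after its value was seen, rose by 0.50 (limma adjusted p = 0.000898). Aard, the most abundant Sertoli cell marker, averaged 1189 ± 40.9 FPKM in Ppp6r3 cKO and 1104 ± 12.9 FPKM in wild type (SD, n = 3 each) and did not pass. After the GC and length correction Aard was called (log2 fold change 0.19, limma adjusted p = 0.00685). The 8 Leydig cell markers summed to 306 to 320 FPKM in Ppp6r3 cKO and 270 to 280 FPKM in wild type, with 2 risers. Their median log2 fold change was 0.114, with 2 of the 8 below 0. For the 6 myoid cell markers the sums were 508 to 536 FPKM in Ppp6r3 cKO and 603 to 629 FPKM in wild type, with 3 fallers. Acta2, the most abundant of them, made up most of these sums. It averaged 463.3 ± 14.8 FPKM in Ppp6r3 cKO and 551.7 ± 13.5 FPKM in wild type (SD, n = 3 each). All 6 myoid markers were below 0 (median -0.193). Endothelial, macrophage and fibroblast markers were all higher in sum. The 10 endothelial markers summed to 64.0 to 68.8 FPKM in Ppp6r3 cKO and 42.8 to 46.9 FPKM in wild type (5 rose), among them Cldn5 (0.83) and Cdh5 (0.61). The 9 macrophage and leukocyte markers summed to 148 to 159 FPKM in Ppp6r3 cKO and 111 to 116 FPKM in wild type (4 rose and 5 did not pass, median 0.273). Of the most abundant of them, Lyz2 was at 0.65 and C1qb at 0.11, the latter with overlapping groups (limma adjusted p = 0.273). The 8 fibroblast markers summed to 577 to 600 FPKM in Ppp6r3 cKO and 483 to 491 FPKM in wild type (6 rose), with Col1a1 at 0.31 and Col3a1 at 0.26.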

How the data were processed

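Alignment of the paired-end reads used HISAT2 2.0.5 and the mouse assembly mm10, as the design text of the series states; DESeq2 is named too, per the submitters' processing notes. Libraries were made with a kit that keeps the strand, per the labels. The gene counter, its strand setting, its handling of reads that match several copies of a gene, and the annotation release are not given in the sources used here. The deposited table holds FPKM made by the authors, 1 column per sample, although its name speaks of raw counts. Multiplied by exon lengths from GENCODE M21 (GRCm38, the assembly of mm10), the FPKM of 97.0% of genes above 0 were whole numbers of 1 step in each library, to within 0.01; the rest fitted another length. This gave the fragments and the depth. Values of log2(FPKM + 0.1) were compared in limma 3.58.1 (R 4.3.3; variance trend, robust, 2-sided, Benjamini-Hochberg) over 17658 genes with at least 10 fragments in at least 3 libraries. Fold changes are on that scale and understate changes of low genes. Library scaling was left as deposited (median-ratio factors 1.0006 to 1.0049). Pairs of genes were compared by their log2 ratio within a library, with a 2-sided exact permutation test. Named genes were the 38, Ppp6r3, up to 3 passing genes of largest change in each other list, and up to 2 of the most abundant genes of each marker list; others are marked, and some results are not reported here. Members and lists were chosen with earlier results of these data known. Libraries of a group differed beyond counting noise (chi-square over its degrees of freedom 2.18 to 4.19) and none was merged. The procedure was also run on simulated data, with a result not reported here. The simulation had no GC bias and larger folds than the 38 genes, so it cannot speak for calls of their size. Tables were joined in Python 3.11.15. Alternatives were voom on the recovered fragments, scaling, filter, pseudocount, robust estimation, threshold, replicate block, GC and length (natural splines, 5 degrees of freedom each), and each library left out.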

Additional observations from a re-analysis of the deposited data

How the results depend on the processing

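No alternative reversed a member that had passed. Members called higher and lower numbered 2 and 9, other pathway genes 15 and 10, and all genes 1355 and 1388. With no filter on low values these counts were 1 and 1, 9 and 5, and 740 and 768, where 32589 genes shared the adjustment. At an adjusted p under 0.01 in limma they were 0 and 0, 4 and 2, and 418 and 471. In the same fit 19 members had an unadjusted p under 0.05, a count given without its share over all genes. Quantile normalization left 5 members lower, the GC and length correction joined to a replicate block also 5, and voom called 2145 of all genes lower; the cause was not tested. Samples of the same replicate number showed no shared deviation (correlations -0.007 to 0.014), though correlations near 0 cannot show that they were unpaired. With the replicate block 3 members and 6 other pathway genes were called lower. Of the 38, 13.2% were then called, against 12.4% of all genes. Leaving out 1 library gave 0 to 2 members higher and 0 to 5 lower, 5 to 13 other pathway genes higher and 3 to 9 lower, and 600 to 1120 of all genes higher and 642 to 1276 lower, each from 5 libraries. Signs that turned were all of members near 0 that did not pass: after the GC and length correction, with or without the block, Akt1s1 was at -0.014, Rraga at 0.061, Lamtor2 at 0.011, Mios at 0.012 and Tfeb at -0.017. Without 1 library Rictor ran from -0.001 to 0.070, Rheb from -0.008 to 0.042, Lamtor1 from -0.008 to 0.056, Lamtor2 from -0.088 to 0.022, Mios from -0.060 to 0.041, Sec13 from -0.003 to 0.031 and Rps6kb1 from -0.016 to 0.085. Scaling by median ratios and pseudocounts of 0.01 and 1 each gave 11 calls among the 38. Tfeb had the fewest fragments of the 38 (222 to 305 in a library), and its interval ran from -0.18 to 0.36. The part of depth in that width was not tested.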
